A study of Mus musculus with 9 samples.

Results

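Keratinocytes of the hair follicle (HF) were compared with keratinocytes of the interfollicular epidermis (IFE), the skin surface between follicles, across all genes. The members were the 3 HF and 3 IFE libraries, 6 of the 9 libraries of the series, and were chosen by their labels and not by any measured value. All were poly(A) RNA-seq libraries from back skin of C57BL/6 mice of the genotype TNC-CREER; tdTomato at postnatal day 60. Every mouse, in both groups, had received tamoxifen at 100 µg per g body weight on postnatal days 51 and 52, and in this genotype tamoxifen switches on a red reporter in cells in which the Tenascin-C gene drives the Cre. Skin was digested with trypsin and sorted, per the labels' protocols, for the epithelial surface protein EPCAM and for integrin α6, carried by keratinocytes that touch the basement membrane. Both groups were sorted as reporter-negative, so they differed in the sort only by SCA1, the product of Ly6a, which IFE cells carried and HF cells lacked. The third population of the series, reporter-positive Touchdome cells, entered the statistical fit for its estimate of the spread and is not described. The gates set limits to both groups. Suprabasal epidermis with little integrin α6 falls outside IFE. Follicle cells that carry SCA1 or the reporter fall outside HF, and those with SCA1 but no reporter pass the SCA1 gate of IFE. Neither group is a single cell type. The labels do not state how many mice went into a library or that libraries came from separate mice, so the p-values describe only how these particular samples vary, which may be technical.

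The hair follicle and the epidermis are parts of the same epithelium, and each is renewed by its own stem cells. In a resting follicle, quiescent stem cells sit in the bulge, a smaller cluster of primed progenitors (the hair germ) lies below it, and the isthmus, the junctional zone and the sebaceous gland lie above. Hair growth starts when Wnt and Hedgehog signals overcome BMP signals that hold the bulge at rest, whereas basal cells of the epidermis divide throughout life and stratify into keratin-rich layers.

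Total expected counts were 9295059 to 21358479 in HF and 14647371 to 28249763 in IFE libraries, so 3 counts, the limit that a count of 0 allows, correspond to 0.114 to 0.316 CPM, the count scaled to the same library total in all libraries. Over the genes tested, log2 levels correlated at 0.9605 to 0.9667 between HF libraries, at 0.9591 to 0.9793 between IFE libraries and at 0.848 to 0.8857 across the groups, and the groups lay apart on the leading principal component, which held 72.15% of the variance. IFE replicate 2 stood apart from IFE replicates 1 and 3. Of 9370 genes at a mean of at least 10 CPM in IFE, 28 were over 2-fold above and 97 over 2-fold below both other libraries in IFE replicate 2, against 7 and 9 in replicate 1 and 3 and 4 in replicate 3. Results that rest on it are given below with and without it.

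Ly6a lay on the side its gate gives. In this and all later sentences, values of 3 libraries stand in the order of replicates 1, 2 and 3, fold changes are log2 of HF over IFE ± standard error, and adjusted p-values are those of edgeR's quasi-likelihood test over all 15046 genes tested. Ly6a was at 0.914, 0.422 and 1.90 CPM in HF against 112, 168 and 179.6 CPM in IFE (log2 fold change -7.07 ± 0.37, adjusted p = 5.16e-07). Itga6, the gene of integrin α6, was at 418, 449.7 and 399 CPM in HF against 1367, 872 and 1163 CPM in IFE (log2 fold change -1.43 ± 0.16, adjusted p = 2.37e-05). Epcam was at 245, 242 and 196 CPM in HF against 113, 132 and 121 CPM in IFE (log2 fold change 0.90 ± 0.21, adjusted p = 0.00718). Both groups were sorted as positive for the proteins of Itga6 and Epcam, and for Ly6a the difference restates the gate. Tnc, whose gene drives the Cre, was at 40.6, 56.9 and 54.0 CPM in HF against 6.10, 1.13 and 7.16 CPM in IFE (log2 fold change 3.33 ± 0.50, adjusted p = 0.00137), although cells of both groups carried no reporter.

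Of the 15046 genes tested, 2571 were higher in HF and 2401 lower at an adjusted p under 0.05, which is 17.1% and 16.0% of all genes and 33.0% in either direction. Limma on log2(TPM + 1) called 2989 higher and 1209 lower, so the near-even split did not hold there. Among genes called higher by edgeR the median log2 fold change was 1.53, and among those called lower it was -0.83. At 2-fold or more, 1710 genes (11.4%) were higher and 993 (6.60%) lower, and at a log2 fold change of 5 or more, 260 were higher and 82 lower. The median over all genes tested was 0.00, and all 3 libraries of one group lay above all 3 of the other for 24.6% of genes in favour of HF and for 23.1% in favour of IFE.

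**Figure D1:**
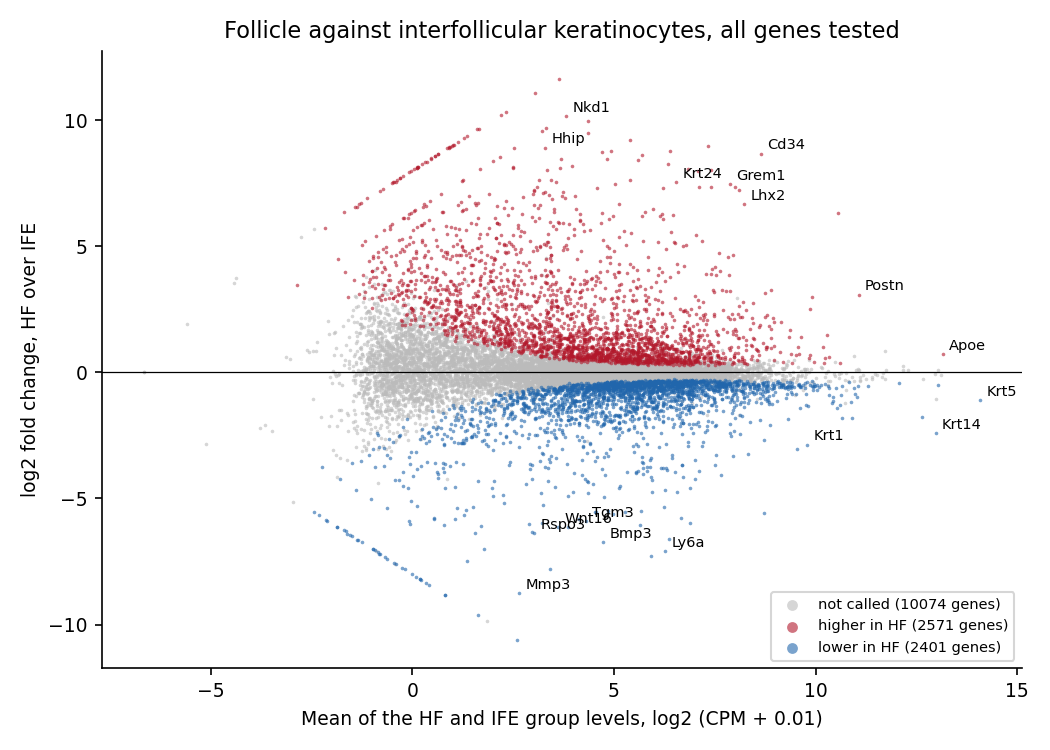
Each point is 1 of the 15046 genes tested, by the mean of its HF and IFE levels (horizontal, log2 of CPM + 0.01) and its log2 fold change of HF over IFE (vertical); red and blue mark the 2571 genes called higher and the 2401 called lower in HF. Points above 5 are more frequent than points below -5 (260 against 82 called genes), and the straight lines of points at the left edge are genes with no or almost no counts in one group, whose fold change depends on the fit.

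Genes of the bulge were higher in HF. Of 20 bulge genes listed, 19 could be tested, 17 were higher in HF and none lower, with a median log2 fold change of 3.14 beside 0.00 over all genes. Cd34, which encodes a surface glycoprotein used to isolate bulge cells, was at 712, 792 and 895 CPM in HF against 1.42, 1.76 and 2.54 CPM in IFE (log2 fold change 8.68 ± 0.83, adjusted p = 0.000195). Lhx2, a homeobox factor that keeps bulge cells quiescent, was at 634, 607 and 553 CPM in HF against 5.42, 6.89 and 5.53 CPM in IFE (log2 fold change 6.66 ± 0.50, adjusted p = 2.52e-05). Every HF library was far above every IFE library for both genes. The transcription factors Sox9, Nfatc1, Foxc1 and Tbx1 were higher as well. Sox9 was at 572, 481 and 489.9 CPM in HF against 72.5, 74.6 and 73.3 CPM in IFE (log2 fold change 2.81 ± 0.42, adjusted p = 0.00122). Tbx1 was at 297, 246 and 279.9 CPM in HF against 1.05, 1.41 and 2.35 CPM in IFE (log2 fold change 7.36 ± 0.73, adjusted p = 0.000215). Sox9 thus kept a level above 70 CPM in IFE, and Tbx1 was under 3 CPM there. Krt24, a keratin of the bulge, was at 186, 184 and 190.1 CPM in HF against 0.421, 1.90 and 0.871 CPM in IFE (log2 fold change 7.54 ± 0.39, adjusted p = 6.99e-07). The secreted protein gene Angptl7 was at 176, 135 and 188 CPM in HF against 0.158, 0.844 and 0.265 CPM in IFE (log2 fold change 8.76 ± 0.61, adjusted p = 1.47e-05). Postn, which encodes the matrix protein periostin, was at 3671, 3475 and 4393 CPM in HF against 505, 350.5 and 504 CPM in IFE (log2 fold change 3.09 ± 0.24, adjusted p = 2.27e-06).

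Krt15, often used as a bulge marker, was not called between the groups. It was at 8926, 8996 and 8106 CPM in HF against 7147, 10086 and 7337 CPM in IFE (log2 fold change 0.08 ± 0.16, adjusted p = 0.729), and the libraries overlapped, with the highest value of all in IFE replicate 2. By TPM, which is scaled by transcript length, its mean was 11042 in HF, above that of Krt5 or Krt14 there, and 8912 in IFE, below both. Itgb6 was not called either, at 31.3, 30.6 and 40.2 CPM in HF against 33.9, 18.0 and 24.8 CPM in IFE, except without IFE replicate 1 (adjusted p = 0.0196). Aldh1a3 was too low to test. In bulk RNA of sorted cells, fewer cells of a type and less RNA of a gene per cell cannot be told apart, and this holds for every difference reported.

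Of 11 hair germ genes, 9 were tested, 7 were higher in HF and 1 lower. Lgr5, the receptor that marks cycling and primed follicle stem cells, was at 301, 351 and 353 CPM in HF against 1.63, 1.48 and 2.84 CPM in IFE (log2 fold change 7.34 ± 0.78, adjusted p = 0.000339). Pthlh, which encodes a parathyroid hormone-related peptide, was at 40.5, 50.8 and 53.5 CPM in HF against 1.16, 3.02 and 2.61 CPM in IFE (log2 fold change 4.42 ± 0.39, adjusted p = 1.17e-05). Vdr, the vitamin D receptor needed for hair cycling, was well above the detection limit in both groups, at 772, 749.9 and 689 CPM in HF against 233, 177 and 254 CPM in IFE (log2 fold change 1.74 ± 0.24, adjusted p = 0.000264). The exception was Cdh3, the gene of P-cadherin, at 140.2, 153 and 172 CPM in HF against 232, 215 and 235 CPM in IFE (log2 fold change -0.55 ± 0.11, adjusted p = 0.00222), and that call was lost with limma on log2(TPM + 1) (adjusted p = 0.0815). Of 20 genes of the growing hair in the table, 8 were too low to test, among them the hair keratins Krt31, Krt33a, Krt34, Krt35 and Krt86. Of the 12 tested, Lef1, Msx1, Dlx3 and Hoxc13 were higher and Gata3, Foxn1 and Wnt10b lower in HF. Gata3, a factor of inner root sheath and epidermis, was at 166, 194 and 173 CPM in HF against 688, 969 and 607 CPM in IFE (log2 fold change -2.08 ± 0.21, adjusted p = 1.02e-05).

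The HF gate also held RNA of the upper follicle and the sebaceous gland. Among 12 genes of the isthmus, junctional zone and infundibulum, 9 were higher in HF and 1, Klk10, lower. Follicle cells with SCA1 pass the SCA1 gate of IFE, and their part in the IFE levels of these genes was not tested. Krt79, a keratin of the sebaceous duct and infundibulum, was at 1744, 2258 and 1158 CPM in HF against 193, 202 and 252 CPM in IFE (log2 fold change 3.0 ± 0.41, adjusted p = 0.000542). Krt17 was at 1722, 1655 and 1373 CPM in HF against 255, 269 and 311 CPM in IFE (log2 fold change 2.51 ± 0.15, adjusted p = 1.23e-07). Both Lgr6 and Lrig1, markers of isthmus and junctional stem cells, were higher by under 2-fold, with Lgr6 at 351, 326 and 369 CPM in HF against 253, 207 and 279 CPM in IFE (log2 fold change 0.50 ± 0.14, adjusted p = 0.0129). The call of Lgr6 was lost without HF replicate 3 (adjusted p = 0.0508). That of Lrig1 was lost in 6 of 12 alternatives, among them each of the 3 that left out an HF library (adjusted p 0.0657 to 0.0911 in those). Plet1 was not called, at 199, 168 and 147 CPM in HF against 240.5, 107 and 184 CPM in IFE. Of 15 sebaceous genes tested, 13 were higher in HF and none lower, with a median log2 fold change of 3.24. Pparg, the master regulator of sebocyte differentiation, was at 6.22, 25.3 and 15.2 CPM in HF against 0.105, 0.070 and 0.379 CPM in IFE (log2 fold change 6.17 ± 0.82, adjusted p = 0.000198). Plin2, which coats lipid droplets, was at 107, 189.9 and 189 CPM in HF against 21.3, 22.5 and 18.4 CPM in IFE (log2 fold change 2.97 ± 0.27, adjusted p = 1.64e-05). The summed level of the 16 sebaceous genes was 1246, 2321 and 2049 CPM in HF against 679, 511 and 754 CPM in IFE, so HF replicate 1 held the least of the HF libraries.

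**Figure D2:**
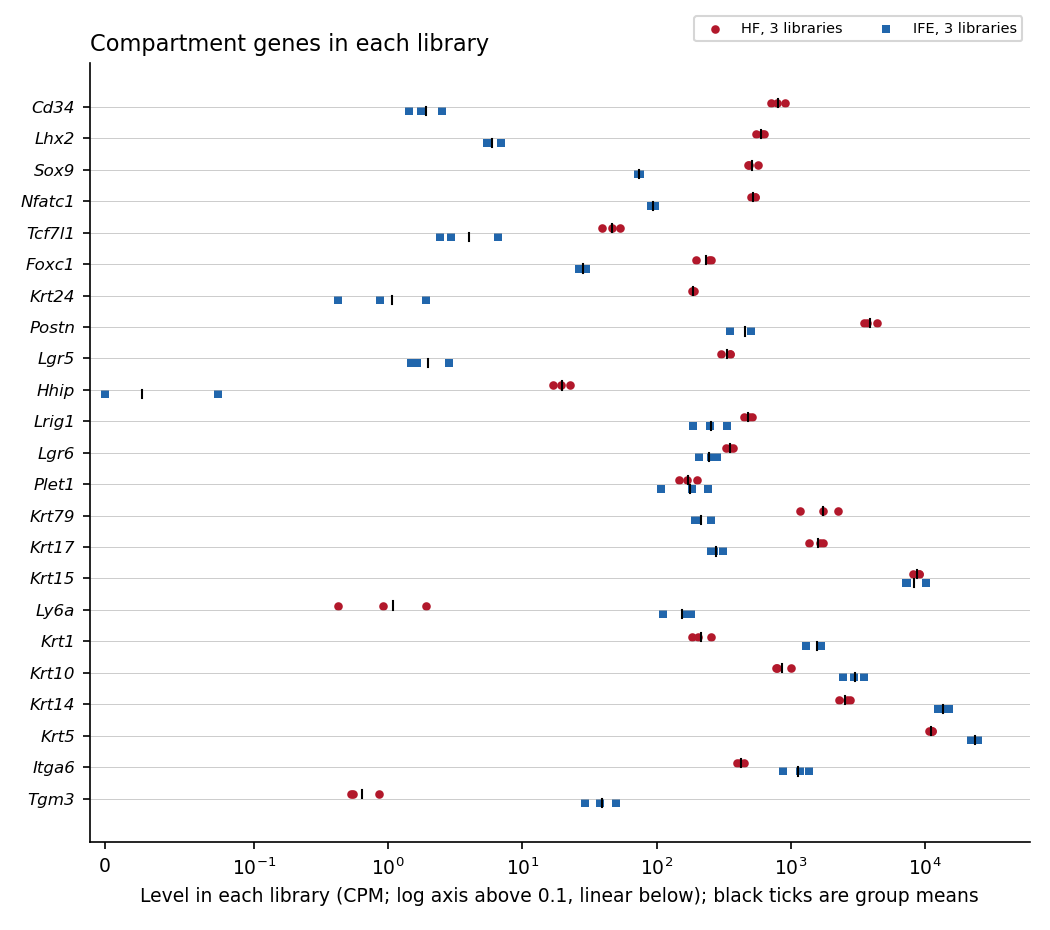
Level of 23 compartment genes in each library (horizontal, CPM, log axis above 0.1 and linear below), red circles for the 3 HF and blue squares for the 3 IFE libraries, with black ticks at group means. Bulge genes such as Cd34, Lhx2 and Krt24 lie far apart, Krt15 and Plet1 overlap, and Ly6a, Krt14 and Tgm3 lie to the right in IFE.

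On the epidermal side, the main basal keratins were lower in HF and most other basal genes were not called. Of 17 basal genes, 6 were lower in HF and none higher, with a median of -0.41. Krt14, the type I keratin of basal cells, was at 2738, 2598 and 2279 CPM in HF against 13263, 12375 and 15131 CPM in IFE (log2 fold change -2.42 ± 0.17, adjusted p = 4.66e-07). Its partner Krt5 was at 11229.8, 11237 and 10705 CPM in HF against 21825, 24557 and 24020.3 CPM in IFE (log2 fold change -1.09 ± 0.14, adjusted p = 6.8e-05). Both keratins were lower in every HF than in every IFE library. By mean TPM, Krt5 was at 9528 and Krt14 at 2948 in HF. In IFE, Krt5 was at 17375 TPM and Krt14 at 13702 TPM. The hemidesmosome and anchoring genes Itgb4, Itgb1, Col17a1, Lamb3, Dst and Plec were not called, and Col17a1 was at 7278, 8000.3 and 7996 CPM in HF against 8665, 6654 and 8946 CPM in IFE. IFE replicate 2 was the lowest IFE library for each of these 6 genes. Without it, 13 of 17 basal genes were lower in HF, Itgb4 (adjusted p = 0.00556) and Plec (adjusted p = 0.0418) among them, and DESeq2 called 10. Itga3, the partner of integrin β1 in binding laminin, was at 277, 258 and 254 CPM in HF against 581, 492 and 505 CPM in IFE (log2 fold change -1.0 ± 0.13, adjusted p = 6.53e-05). Dlk2 was at 35.8, 32.1 and 31.0 CPM in HF against 60.0, 77.4 and 81.7 CPM in IFE (log2 fold change -1.15 ± 0.15, adjusted p = 8.81e-05).

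Genes of the suprabasal layers were called lower in HF more often than higher, with a median of -0.54. Of 26 tested, 9 were lower (34.6%, beside 16.0% of all genes). Another 5 were higher (19.2%, near the 17.1% of all genes). Krt1 and Krt10, the keratin pair of the spinous layer, were both lower. Krt1 was at 253, 183 and 204 CPM in HF against 1680.1, 1674 and 1301 CPM in IFE (log2 fold change -2.86 ± 0.18, adjusted p = 2.12e-07). Krt10 was at 999, 785 and 776 CPM in HF against 2958, 3515 and 2449 CPM in IFE (log2 fold change -1.80 ± 0.18, adjusted p = 8.57e-06). Tgm3, a transglutaminase that cross-links the cornified envelope, was under 1 CPM in every HF library, at 0.548, 0.527 and 0.852 CPM in HF against 37.9, 29.1 and 49.6 CPM in IFE (log2 fold change -5.90 ± 0.30, adjusted p = 3.72e-08). Dsg1a, a desmosomal cadherin, was at 255, 339 and 228 CPM in HF against 1169, 812 and 1007 CPM in IFE (log2 fold change -1.86 ± 0.18, adjusted p = 7.83e-06). Higher in HF were Sbsn, Dmkn, Ivl, Dsc1 and Calml3. The call of Dmkn was lost in 6 of 12 alternatives (adjusted p 0.0575 to 0.171 in those). Of the 5, Calml3, a calmodulin-like protein gene of epithelia, differed most, at 436, 475 and 517 CPM in HF against 12.7, 23.1 and 21.0 CPM in IFE (log2 fold change 4.65 ± 0.54, adjusted p = 0.000373). The gene of loricrin, a late envelope protein, varied over 5-fold within each group. It was at 6.44, 15.3 and 76.4 CPM in HF against 17.3, 122 and 28.0 CPM in IFE and was not called. Among all 28 keratin genes tested, 6 were called higher and 6 lower in HF, beside 17.1% and 16.0% of all genes, and neither count was tested against those shares. Keratin transcripts together made up 2.92 ± 0.19% of counts in HF and 4.97 ± 0.34% in IFE (SD, n = 3 each).

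The DNA before the starts of these keratin genes is shown for a pair lower in HF (Krt14, Krt10) and 1 higher in HF (Krt24), all from the type I keratin cluster. The windows are the 250 bases upstream of the annotated start, 5′ to 3′ on the gene's strand, from RefSeq (GRCm38.p6), and capitals mark the TATA motif TATANAA, searched on the gene's strand only. All 3 genes lie on the minus strand of chromosome 11, Krt14 with its window at chr11:100206031-100206280, Krt10 at chr11:99389365-99389614 and Krt24 at chr11:99285263-99285512.
Krt14: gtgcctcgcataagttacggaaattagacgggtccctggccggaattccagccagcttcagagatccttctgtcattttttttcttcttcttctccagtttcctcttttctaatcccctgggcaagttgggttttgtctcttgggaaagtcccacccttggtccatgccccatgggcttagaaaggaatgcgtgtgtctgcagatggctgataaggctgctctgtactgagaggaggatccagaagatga
Krt10: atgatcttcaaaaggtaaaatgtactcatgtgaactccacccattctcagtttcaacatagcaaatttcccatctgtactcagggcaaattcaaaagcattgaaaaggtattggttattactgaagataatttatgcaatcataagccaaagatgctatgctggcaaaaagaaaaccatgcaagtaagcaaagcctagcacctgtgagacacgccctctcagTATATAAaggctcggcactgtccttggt
Krt24: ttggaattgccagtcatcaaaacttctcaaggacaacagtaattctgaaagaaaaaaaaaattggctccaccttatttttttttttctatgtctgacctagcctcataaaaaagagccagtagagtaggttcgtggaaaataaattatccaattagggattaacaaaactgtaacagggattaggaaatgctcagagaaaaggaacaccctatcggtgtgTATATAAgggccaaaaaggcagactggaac
The motif began 28 bases before the start of Krt10 and 30 bases before that of Krt24, a gene from each side of the comparison, and was not in the window of Krt14. It was in 4 of the 9 called keratins with a window, and in 2.95% of the windows of all 10681 tested genes that had one. It stood in 3.22% of windows of genes higher in HF by at least 2-fold (n = 1212) and in 4.33% of those lower by at least 2-fold (n = 716).

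The SCA1 gene belongs to the Ly6 family of lipid-anchored surface proteins, and 5 of the 9 members tested, Ly6a included, were lower in HF and none higher. Under 7 of the 12 alternatives 1 or 2 members were called higher, with 2 without IFE replicate 2. Those counts include members that were fitted in an alternative but not tested in the main fit. Among the 9 members tested in the main fit, only Ly6g6c was called higher under any alternative. These were 3, namely without IFE replicate 2, the replicate block and limma on log2(TPM + 1). Ly6c1 was at 0.503, 0 and 0 CPM in HF against 11.2, 18.8 and 14.2 CPM in IFE (log2 fold change -6.00 ± 0.66, adjusted p = 4.54e-05). Ly6d, a marker of stratified epithelium, was at 278, 345 and 210.1 CPM in HF against 502, 693 and 656 CPM in IFE (log2 fold change -1.15 ± 0.18, adjusted p = 0.00025). Ly6e was not called, at 227, 277 and 199.7 CPM in HF against 198, 261 and 298 CPM in IFE. The call of Lypd3 (adjusted p = 0.0213) was lost without HF replicate 3 (adjusted p = 0.0768), without IFE replicate 1 (adjusted p = 0.0766) and with limma on log2(TPM + 1) (adjusted p = 0.186). Of the Skint genes, which encode surface proteins of keratinocytes, 4 of 11 were higher and 4 lower in HF. Skint7 was at 10.3, 13.3 and 6.09 CPM in HF against 125, 128 and 151 CPM in IFE (log2 fold change -3.78 ± 0.26, adjusted p = 2.15e-06), whereas Skint4 was at 91.5, 119 and 71.6 CPM in HF against 24.4, 26.0 and 27.8 CPM in IFE (log2 fold change 1.85 ± 0.19, adjusted p = 1.49e-05).

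**Figure D3:**
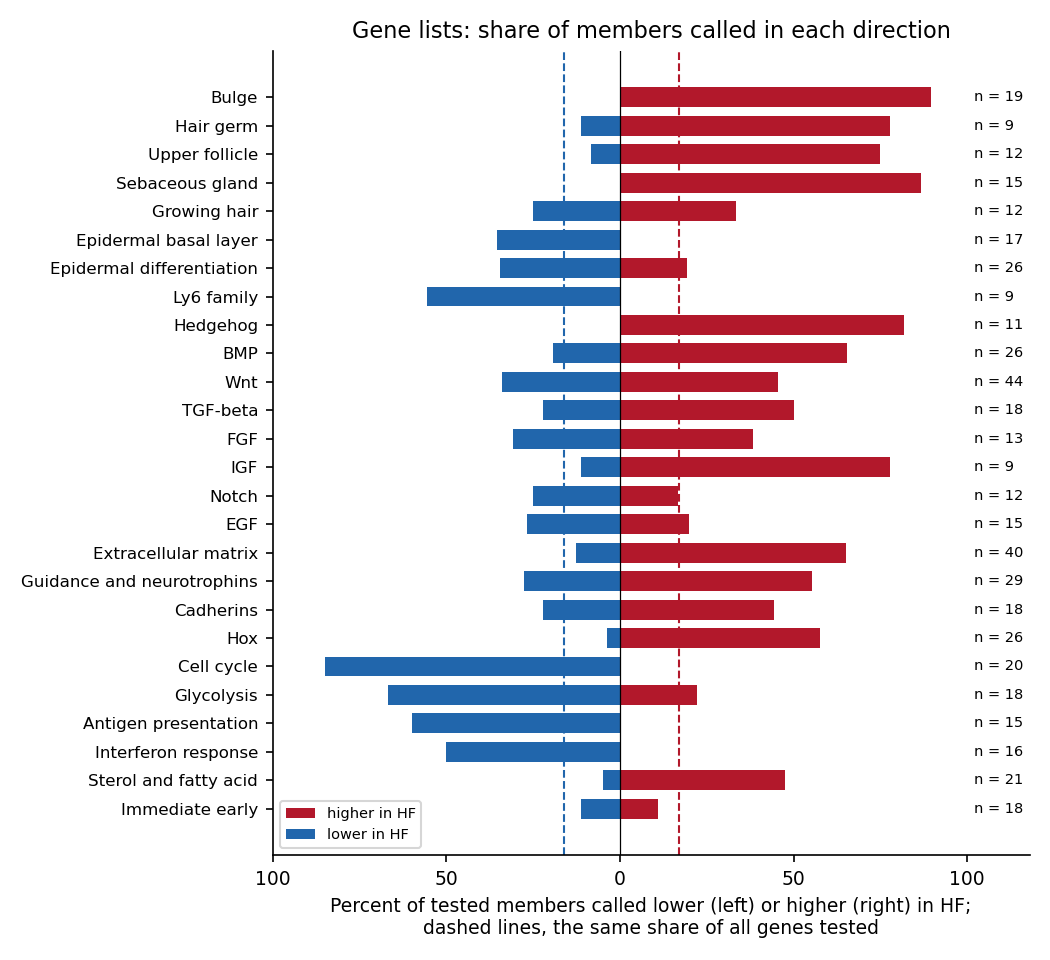
Share of the tested members of each gene list (n at the right) called higher (red, to the right) or lower (blue, to the left) in HF, in percent, with dashed lines at the shares over all genes tested (17.1% and 16.0%). Bulge, sebaceous gland, Hedgehog and cell cycle lists have calls in 1 direction only, while Wnt, FGF and EGF lists have them in both.

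Hedgehog receptors, coreceptors and transcription factors were higher in HF, and the core transducers were not called. Hedgehog ligands bind the receptor PTCH1, which frees SMO to activate GLI transcription factors, and GLI1, PTCH1 and HHIP are themselves targets of the pathway. The 3 ligand genes Shh, Ihh and Dhh were too low to test in either group, with no library above 1.31 CPM. Of the 11 other genes, 9 were higher in HF and none lower, with a median of 2.11. Gli1 was at 145, 98.2 and 197 CPM in HF against 1.37, 2.46 and 2.57 CPM in IFE (log2 fold change 6.09 ± 0.39, adjusted p = 3.41e-06). Gli2, the main activator, was at 119.8, 135 and 143 CPM in HF against 3.73, 2.88 and 4.17 CPM in IFE (log2 fold change 5.18 ± 0.20, adjusted p = 5.02e-09). Gli3 was at 64.1, 74.7 and 66.8 CPM in HF against 35.7, 19.8 and 36.6 CPM in IFE (log2 fold change 1.15 ± 0.20, adjusted p = 0.000816). All 3 factors were thus higher in every HF library than in every IFE library, Gli3 by the least. Ptch1 was at 71.8, 80.2 and 128 CPM in HF against 25.5, 24.4 and 27.9 CPM in IFE (log2 fold change 1.85 ± 0.19, adjusted p = 1.26e-05). HF replicate 3 held the highest values of Gli1 and Ptch1. Hhip, a decoy receptor, had 949 counts over the HF libraries and 2 over the IFE libraries, a ratio of 607 with a 95% counting interval of 168 to 5018. The coreceptors Gas1, Boc and Cdon were higher too, with Gas1 at 602, 514 and 566 CPM in HF against 133, 124 and 124 CPM in IFE (log2 fold change 2.14 ± 0.11, adjusted p = 3.94e-08). Smo and Sufu, whose products act between the receptor and the GLI factors, were not called. Smo was at 159, 153 and 166 CPM in HF against 173, 194 and 175 CPM in IFE (adjusted p = 0.2).

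BMP antagonists and the Id genes were higher in HF, and BMP ligands went both ways. BMP ligands signal through SMAD1, SMAD5 and SMAD9 to ID genes, and secreted antagonists bind the ligands outside the cell. Of 26 genes tested, 17 were higher and 5 lower in HF, with a median of 1.47. All 6 antagonists tested were higher. Grem1 was at 448, 500.2 and 460.2 CPM in HF against 2.42, 3.17 and 2.42 CPM in IFE (log2 fold change 7.47 ± 0.73, adjusted p = 0.000192). Fst, the gene of follistatin, was at 389.9, 328 and 411 CPM in HF against 78.8, 87.5 and 79.8 CPM in IFE (log2 fold change 2.20 ± 0.23, adjusted p = 3.4e-05). Nog was at 50.7, 47.6 and 56.1 CPM in HF against 0.421, 2.39 and 1.36 CPM in IFE (log2 fold change 5.26 ± 0.43, adjusted p = 9.25e-06). Chrd had 0 counts in IFE and was at least 32.8-fold higher in HF, at a low level of 1.60, 1.90 and 1.57 CPM. The ligands split evenly. Bmp6, Bmp7 and Gdf10 were higher in HF, while Bmp2, Bmp3 and Bmp4 were lower. The call of Bmp2 was lost with limma on log2(TPM + 1) and without any 1 of the 3 HF libraries or IFE replicate 1 or 3 (adjusted p 0.0552 to 0.255). Bmp4 was at 0.731, 0.948 and 2.16 CPM in HF against 51.5, 73.4 and 61.4 CPM in IFE (log2 fold change -5.61 ± 0.33, adjusted p = 4.45e-07). Bmp3 was at 0.731, 0.422 and 0.197 CPM in HF against 58.5, 58.7 and 41.5 CPM in IFE (log2 fold change -6.74 ± 0.42, adjusted p = 1.4e-06). Bmp6 was at 13.4, 12.1 and 12.4 CPM in HF against 0, 0.492 and 0.303 CPM in IFE (log2 fold change 5.59 ± 0.61, adjusted p = 1.74e-05). Gdf10 had no count in IFE and was at least 86.5-fold higher in HF. The 4 Id genes, the common readout of BMP signalling, were all higher. Id2 was at 145, 131 and 152 CPM in HF against 10.4, 12.5 and 12 CPM in IFE (log2 fold change 3.62 ± 0.28, adjusted p = 5.56e-06), and the others lay between log2 fold changes of 0.97 to 1.68. The inhibitory Smad6 and Smad7 were higher (log2 fold changes 3.31 and 1.31), as was Smad9, at 22.1, 25.6 and 31.0 CPM in HF against 0.210, 0 and 0.303 CPM in IFE (log2 fold change 7.01 ± 0.62, adjusted p = 9.12e-06). The receptors Bmpr1a, Bmpr2 and Acvr1 were not called, although limma on log2(TPM + 1) called Bmpr1a higher (adjusted p = 0.0413), and Bmpr1b was low and lower in HF.

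The Wnt list split by role. Wnt ligands bind Frizzled receptors and stabilise β-catenin, which acts with TCF and LEF factors. Of 12 ligands, 9 were lower in HF, 1 (Wnt5b) was higher and 2 were not called, with a median of -2.02. The call of Wnt5b was lost without HF replicate 1 (adjusted p = 0.0724). Wnt3 was at 4.57, 2.85 and 3.28 CPM in HF against 194, 208 and 199 CPM in IFE (log2 fold change -5.77 ± 0.21, adjusted p = 4.9e-09). Wnt3a was at 1.00, 1.26 and 0.721 CPM in HF against 37.8, 51.6 and 45.6 CPM in IFE (log2 fold change -5.52 ± 0.31, adjusted p = 1.18e-07). Both were under 5 CPM in every HF library. Wnt4 was at 98.5, 83.6 and 93.9 CPM in HF against 308, 448 and 371 CPM in IFE (log2 fold change -2.03 ± 0.14, adjusted p = 5.91e-07). Wnt16 was at 0, 0.632 and 0.590 CPM in HF against 20.8, 23.8 and 27.4 CPM in IFE (log2 fold change -6.12 ± 0.52, adjusted p = 7.84e-06). Of 10 Frizzled receptors, 8 were higher in HF and 1, Fzd10, lower, with a median of 2.88. Fzd2 was at 348, 317 and 360.3 CPM in HF against 13.5, 21.9 and 20.9 CPM in IFE (log2 fold change 4.19 ± 0.32, adjusted p = 9.89e-06). Fzd7 was at 393, 410.1 and 399 CPM in HF against 41.9, 35.2 and 49.7 CPM in IFE (log2 fold change 3.24 ± 0.30, adjusted p = 3.26e-05). Fzd10 was at 7.86, 7.38 and 5.83 CPM in HF against 94.8, 122 and 98.5 CPM in IFE (log2 fold change -3.90 ± 0.27, adjusted p = 1.87e-06). Fzd10 and 9 of the 10 called ligands were thus on the IFE side, and the other called Frizzled receptors on the HF side. Of 5 Wnt coreceptor genes tested, 3 were higher and 1 lower in HF.

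Secreted Wnt antagonists were on the HF side, with 4 of 6 higher and none lower. Sfrp1 was at 373, 485 and 481 CPM in HF against 95.7, 89.3 and 82.9 CPM in IFE (log2 fold change 2.32 ± 0.15, adjusted p = 2.65e-07). Dkk3 was at 346, 372 and 417 CPM in HF against 11.4, 19.0 and 13 CPM in IFE (log2 fold change 4.72 ± 0.52, adjusted p = 0.000271). Wif1 was at 67.8, 50.8 and 62.9 CPM in HF against 0.053, 0 and 0.265 CPM in IFE (log2 fold change 8.76 ± 0.58, adjusted p = 2.62e-06). Of the nuclear effectors, Tcf7l1, Tcf7l2 and Lef1 were higher in HF. Tcf7 was called higher without IFE replicate 2 (adjusted p = 0.00937) and with limma on log2(TPM + 1) (adjusted p = 0.0363), but not with all libraries in edgeR. Tcf7l1, which represses Wnt targets in bulge cells, was at 53.2, 46.5 and 39.3 CPM in HF against 2.95, 6.54 and 2.42 CPM in IFE (log2 fold change 3.59 ± 0.35, adjusted p = 1.91e-05). Lef1 had 534 counts in HF and 2 in IFE, a ratio of 342 with a 95% counting interval of 94.1 to 2827. Of 7 feedback and receptor turnover genes, 1 was higher and 4 lower. Axin2, a general target of β-catenin, was lower in HF, at 84.7, 98.7 and 85.5 CPM in HF against 141, 158 and 136 CPM in IFE (log2 fold change -0.70 ± 0.15, adjusted p = 0.00349), and so were Rnf43 and Znrf3 (log2 fold changes -0.72 and -0.77), which remove Frizzleds from the surface. Limma on log2(TPM + 1) called neither Axin2 (adjusted p = 0.0982) nor Znrf3 (adjusted p = 0.142). Nkd1, another feedback inhibitor, was at 29.4, 24.6 and 30.3 CPM in HF and had 1 count in IFE, a ratio of 1713 with an interval of 306.8 to 67689. Rspo3, a secreted enhancer of Wnt signalling, was at 0.320, 0 and 0.131 CPM in HF against 14, 19.5 and 15 CPM in IFE (log2 fold change -6.38 ± 0.48, adjusted p = 8.51e-07).

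**Figure D4:**
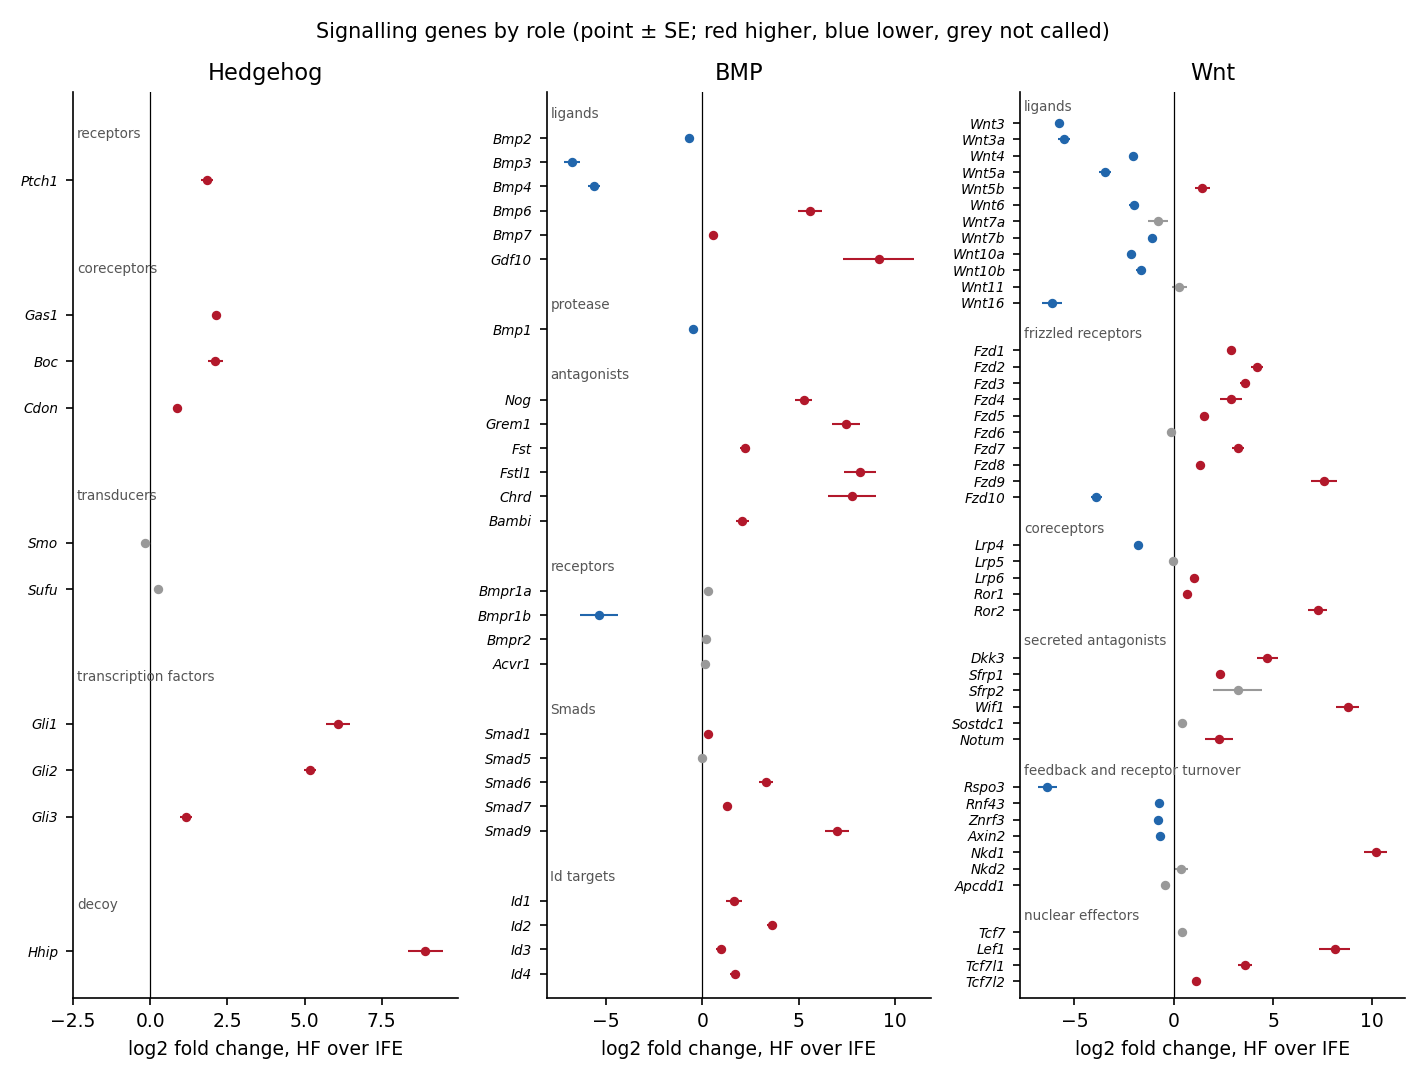
log2 fold change of HF over IFE (horizontal, points, bars are ± 1 SE) for genes of the Hedgehog, BMP and Wnt lists, ordered by role, red where called higher, blue where called lower and grey where not called. Wnt ligands lie mostly left of 0 and Frizzled receptors mostly right, all BMP antagonists lie right, and Smo and Sufu lie near 0.

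Of the IGF binding proteins, which hold insulin-like growth factors outside cells, 5 of 6 were higher in HF. Igfbp5 was at 122, 84.3 and 229 CPM in HF against 3.21, 1.76 and 0.795 CPM in IFE (log2 fold change 6.28 ± 0.58, adjusted p = 8.82e-05). Igfbp4 was at 394, 469 and 419 CPM in HF against 32.0, 47.3 and 58.5 CPM in IFE (log2 fold change 3.22 ± 0.30, adjusted p = 2.96e-05). Igfbp3 was the exception, at 155, 146 and 183 CPM in HF against 1292, 1398 and 1288 CPM in IFE (log2 fold change -3.04 ± 0.14, adjusted p = 2.71e-08). Of 18 TGF-β genes, 9 were higher and 4 lower in HF, and the ligands Tgfb2 and Tgfb3 and the latent binding genes Ltbp1 and Ltbp3 were among those higher (log2 fold changes 1.81 to 2.92). The 9 higher TGF-β calls were 50.0%, beside 17.1% of all genes, and the 4 lower calls 22.2%, beside 16.0% of all genes. These 4 lower calls were not made by limma on log2(TPM + 1). Among FGF genes, 5 of 13 were higher (38.5%, beside 17.1% of all genes) and 4 lower (30.8%, beside 16.0% of all genes). Fgfr1 was at 890.1, 747 and 944 CPM in HF against 77.8, 95.7 and 97.6 CPM in IFE (log2 fold change 3.25 ± 0.24, adjusted p = 2.44e-06). Fgfr2 was at 261, 278 and 317 CPM in HF against 707, 601 and 723 CPM in IFE (log2 fold change -1.25 ± 0.12, adjusted p = 8.15e-06), so the 2 receptors were on opposite sides. Limma called 2 FGF genes lower where edgeR called 4. In the EGF family, 3 of 15 were higher and 4 lower, shares near the 17.1% and 16.0% over all genes. The EGF family ligand gene Epgn was at 12, 5.06 and 12.4 CPM in HF against 186, 87.3 and 141 CPM in IFE (log2 fold change -3.78 ± 0.45, adjusted p = 0.000317).

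Extracellular matrix genes were mostly higher in HF, with 26 of 40 higher and 5 lower and a median of 1.95. Without IFE replicate 2, 8 were lower. Col6a1, a chain of the beaded-filament collagen VI, was at 402, 409 and 492 CPM in HF against 28.8, 29.1 and 32.0 CPM in IFE (log2 fold change 3.86 ± 0.43, adjusted p = 0.00023). Col6a2 was at 146, 147 and 190.0 CPM in HF against 0.210, 0.563 and 0.719 CPM in IFE (log2 fold change 8.27 ± 0.90, adjusted p = 0.000375). Col1a2 was at 68.4, 54.1 and 73.3 CPM in HF against 0.210, 0 and 0.681 CPM in IFE (log2 fold change 7.48 ± 0.44, adjusted p = 8.51e-07). Of the basement membrane collagens, Col4a4 was at 34.8, 30.4 and 33.8 CPM in HF against 0.316, 0.141 and 0.530 CPM in IFE (log2 fold change 6.5 ± 0.41, adjusted p = 2.12e-07), and Col4a3 was higher too (log2 fold change 5.01). Aspn, a small proteoglycan gene, was at 73.9, 68.9 and 111 CPM in HF against 0.263, 0.633 and 0.416 CPM in IFE (log2 fold change 7.62 ± 0.73, adjusted p = 0.000106). Lower in HF were Tnxb, Efemp1, Col4a6, Col16a1 and Smoc2, of which Smoc2, was at 78.4, 70.9 and 99.4 CPM in HF against 345, 439 and 469 CPM in IFE (log2 fold change -2.33 ± 0.17, adjusted p = 6.1e-07). Fibroblasts make many of these proteins, and apart from Col1a1 and Col1a2, which are on both lists, their markers were low in HF. In HF, Lum and Dpt were at 0 in all libraries, Dcn had 1 count over the 3 libraries, Col3a1 was at 0, 0 and 0.786 CPM and Pdgfra at 0.503, 1.58 and 1.25 CPM. Thy1, also on the fibroblast list, was at 6.4, 4.43 and 6.29 CPM in HF against 141, 107 and 198 CPM in IFE (log2 fold change -4.68 ± 0.24, adjusted p = 1.18e-07). The part of fibroblasts in the matrix result was not tested.

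Of 29 genes of axon guidance and neurotrophin signalling, 16 were higher and 8 lower in HF. Sema3e, a secreted guidance cue, was at 262, 257 and 329.8 CPM in HF against 6.10, 6.68 and 9.88 CPM in IFE (log2 fold change 5.21 ± 0.37, adjusted p = 1.02e-05), while Sema3f was at 41.8, 31.2 and 31.5 CPM in HF against 337, 344 and 329.7 CPM in IFE (log2 fold change -3.27 ± 0.16, adjusted p = 3.15e-08). Bdnf, a neurotrophin, was at 20.7, 17.4 and 22.2 CPM in HF against 0, 0.211 and 0.038 CPM in IFE (log2 fold change 8.04 ± 0.71, adjusted p = 5.72e-06). Its receptor gene Ntrk2 was at 38.7, 32.8 and 24.4 CPM in HF against 183, 145 and 199 CPM in IFE (log2 fold change -2.46 ± 0.18, adjusted p = 6.61e-07), so ligand and receptor lay on opposite sides. Gdnf, the gene of the growth factor GDNF, was at 8.82, 10.2 and 9.24 CPM in HF against 40.4, 43.1 and 40.8 CPM in IFE (log2 fold change -2.14 ± 0.16, adjusted p = 8.51e-07). Its receptor gene Gfra1 was at 172, 140.5 and 210.1 CPM in HF against 3.58, 0.774 and 2.35 CPM in IFE (log2 fold change 6.23 ± 0.54, adjusted p = 6.22e-05). Gfra2, another receptor of the family, had 1849 counts in HF and 3 in IFE, a ratio of 788 with a 95% counting interval of 269 to 3826.

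Hox genes, which mark position along the body axis, were called mostly in 1 direction. Of 26 tested, 15 were higher and 1, Hoxc4, lower in HF. All 4 genes of the D cluster were higher, with a median log2 fold change of 6.64, against medians of 0.33, 0.88 and 1.12 for the A, B and C clusters. Hoxd4 was at 20.3, 23.0 and 32.9 CPM in HF against 0.053, 0.070 and 0.114 CPM in IFE (log2 fold change 8.13 ± 0.58, adjusted p = 7.36e-07). Hoxd8 was at 18.5, 30.0 and 31.3 CPM in HF against 0.263, 0 and 0.227 CPM in IFE (log2 fold change 7.14 ± 0.76, adjusted p = 6.42e-05). Both were near or under the level of 3 counts in all IFE libraries. Hoxb9 was present in both groups, at 38.3, 34.7 and 40.9 CPM in HF against 13, 9.21 and 10.9 CPM in IFE (log2 fold change 1.78 ± 0.20, adjusted p = 2.22e-05). Hoxc13, known from nails and hair, was at 27.3, 25.6 and 30.3 CPM in HF against 1.00, 0.422 and 1.25 CPM in IFE (log2 fold change 4.88 ± 0.67, adjusted p = 0.000457).

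Cell cycle genes were lower in HF. Of 20 tested, 17 were lower and none higher, with a median of -1.43, and the 12 mitotic genes were all lower (median -1.69) while 5 of 8 replication genes were (median -0.53). Ccnb2, a mitotic cyclin, was at 11.1, 9.91 and 9.30 CPM in HF against 44.0, 43.3 and 40.9 CPM in IFE (log2 fold change -2.08 ± 0.13, adjusted p = 2.12e-07). Plk1, a mitotic kinase, was at 10.9, 9.27 and 8.91 CPM in HF against 36.1, 40.7 and 34.1 CPM in IFE (log2 fold change -1.92 ± 0.15, adjusted p = 1.37e-06). The ribonucleotide reductase gene Rrm2 was not called, at 29.0, 30.2 and 39.1 CPM in HF against 32.6, 28.6 and 36.6 CPM in IFE. The cell cycle inhibitors Cdkn1b and Cdkn1c were higher in HF (log2 fold changes 0.55 and 2.01), while Cdkn1a, Cdkn2c and Cdkn2d were lower.

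Glycolysis genes were also mostly lower in HF, with 12 of 18 lower and 4 higher and a median of -0.84. Eno1 was at 191, 190.1 and 177 CPM in HF against 420.3, 427 and 403 CPM in IFE (log2 fold change -1.16 ± 0.12, adjusted p = 1.01e-05). The lactate exporter gene Slc16a3 was at 2.24, 1.79 and 1.83 CPM in HF against 48.9, 44.9 and 34.9 CPM in IFE (log2 fold change -4.42 ± 0.25, adjusted p = 1.03e-07). On the other side were Ldhb, Slc16a1, Hk2 and Pdk4. Pdk4, which encodes a kinase that inhibits pyruvate dehydrogenase, was at 85.2, 77.9 and 83.2 CPM in HF against 6.42, 5.13 and 8.37 CPM in IFE (log2 fold change 3.61 ± 0.56, adjusted p = 0.0017). The call of Slc16a1 was lost without HF replicate 2 (adjusted p = 0.0524), without HF replicate 3 (adjusted p = 0.0612) and without the filter (adjusted p = 0.0599). Genes of cytosolic ribosomal proteins, a family added after the data were seen, were lower in HF in 69 of 83 cases and never higher, with a median of -0.52. Limma on log2(TPM + 1) called 22 lower, without HF replicate 1 the number was 37, and without HF replicate 2 it was 38. Without IFE replicate 2, which had the largest ribosomal share of the IFE libraries (6.358% of counts), 54 were lower, with a median of -0.385. Without IFE replicate 1, 79 were lower. Under every alternative none was called higher and the median stayed below 0, from -0.65 to -0.28. Their share of counts was 3.92 ± 0.21% in HF and 5.29 ± 0.99% in IFE (SD, n = 3 each).

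Antigen presentation genes of class I were lower in HF, and those of class II were not called. Of 9 class I genes, 8 were lower, with a median of -1.10. H2-K1, a class I heavy chain gene, was at 872, 721 and 1119 CPM in HF against 1397, 2857 and 2308 CPM in IFE (log2 fold change -1.27 ± 0.26, adjusted p = 0.00271). Psmb8, of the immunoproteasome, was at 65.6, 62.4 and 49.1 CPM in HF against 140.3, 169.7 and 163 CPM in IFE (log2 fold change -1.42 ± 0.13, adjusted p = 5.75e-06). Tap1, of the peptide transporter, was at 193, 157 and 161 CPM in HF against 346, 349 and 399.8 CPM in IFE (log2 fold change -1.10 ± 0.12, adjusted p = 1.5e-05). Tap2 was not called (adjusted p = 0.431). Of 16 interferon response genes, 8 were lower and none higher. Oasl2 was at 9.41, 8.85 and 6.68 CPM in HF against 31.0, 19.9 and 31.4 CPM in IFE (log2 fold change -1.73 ± 0.28, adjusted p = 0.000658). Limma called 5 of them lower. Class II genes varied within HF. Cd74, the invariant chain, was at 237, 222 and 40.6 CPM in HF against 66.1, 81.2 and 142 CPM in IFE (adjusted p = 0.438). Cd207, which encodes langerin of Langerhans cells, was at 21.4, 21.8 and 0.852 CPM in HF against 3.68, 3.87 and 6.70 CPM in IFE. HF replicate 3 was lowest in the 6 Langerhans cell and macrophage genes listed, whose sum was 401, 382 and 62.1 CPM in HF and 108, 149 and 238 CPM in IFE. Without HF replicate 3, 3 of the 6 were called higher in HF, Cd207 among them (log2 fold change 2.17, adjusted p = 0.000365). Among class I genes, H2-K1 was highest and Psmb8 and Nlrc5 were lowest in HF replicate 3 of the HF libraries. The part of Langerhans cells in these results was not tested.

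Among cytokines, 7 of 20 were lower and 4 higher in HF. Il1rn, the interleukin 1 receptor antagonist, was at 10.1, 7.17 and 5.96 CPM in HF against 95, 125 and 98.2 CPM in IFE (log2 fold change -3.76 ± 0.23, adjusted p = 4.66e-07). Il33, an alarmin of barrier epithelia, was at 51.2, 71.9 and 37.9 CPM in HF against 283, 272 and 234 CPM in IFE (log2 fold change -2.30 ± 0.23, adjusted p = 2.77e-05). Il34, a survival factor for Langerhans cells, was at 33.8, 35.1 and 20.7 CPM in HF against 96.2, 136 and 93.0 CPM in IFE (log2 fold change -1.86 ± 0.29, adjusted p = 0.000824). Higher was Cxcl12, at 221, 207 and 183 CPM in HF against 36.8, 35.6 and 35.3 CPM in IFE (log2 fold change 2.50 ± 0.26, adjusted p = 3.74e-05). Kitl, the ligand that supports melanocytes, was at 39.7, 34.9 and 48.9 CPM in HF against 18.9, 9 and 14.2 CPM in IFE (log2 fold change 1.55 ± 0.26, adjusted p = 0.000792). Limma on log2(TPM + 1) did not call Kitl (adjusted p = 0.0586). Leaving out HF replicate 1, 2 or 3 or IFE replicate 1 or 3 left 2 of the 4 higher calls in each case.

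Markers of other cell types were checked in each library. In the Merkel cell list, Atoh1, Sox2 and Krt20 were at 0 in all 6 libraries, and the sum was 4.16, 3.69 and 4.13 CPM in HF against 0.42, 0.84 and 0.49 CPM in IFE. The 2 Merkel genes tested, Krt8 and Piezo2, were both called higher in HF. Krt8 had 98 counts in HF and 4 in IFE (adjusted p = 0.003). Piezo2 had 74 counts in HF and 0 in IFE (adjusted p = 0.00157). The melanocyte list summed to 102, 121 and 132 CPM in HF against 15.3, 10.6 and 14.2 CPM in IFE, but Mitf alone was at 93.4, 90.2 and 113 CPM in HF against 12, 6.68 and 11.1 CPM in IFE. Tyr and Mlana reached at most 0.21 CPM in any library. Dct was at 3.02, 14.4 and 7.21 CPM in HF against 0.473, 1.20 and 0.984 CPM in IFE. Tyrp1 was at 0.274, 5.80 and 4.26 CPM in HF against 0.105, 0 and 0.265 CPM in IFE. Kit was at 3.24, 4.74 and 2.75 CPM in HF against 0.947, 0.703 and 0.227 CPM in IFE. Of 6 melanocyte genes tested, 5 were higher in HF, and 2 or 3 were under 7 of the 12 alternatives, among them without HF replicate 2 (2), IFE replicate 1 (2), IFE replicate 2 (2) and IFE replicate 3 (3). T cell markers summed to 10.9, 10.9 and 7.34 CPM in HF and 146, 114 and 204 CPM in IFE, mostly from Thy1. Cd3e, a defining T cell gene, was at 0.229, 0.316 and 0 CPM in HF against 0.421, 1.97 and 1.06 CPM in IFE. Its call was lost in 7 of the 12 alternatives (adjusted p 0.0504 to 0.154 in those), and with HF and IFE libraries alone it did not pass the filter and was not tested. The fibroblast list, which also holds Thy1, summed to 90.0, 66.6 and 93.5 CPM in HF, mostly from Col1a2, and to 142, 108 and 201 CPM in IFE, mostly from Thy1. Of its 6 genes tested, 3 were higher in HF (Pdgfra, Col1a1 and Col1a2) and 1 was lower. Without HF replicate 3, IFE replicate 1 or IFE replicate 2, 1 was higher. The Schwann cell list, at 16.9, 15.7 and 16.8 CPM in HF and 44.0, 57.5 and 71.6 CPM in IFE, rested mostly on Ngfr. Of its 3 genes tested, Ngfr was lower in HF and Sox10 higher, with 33 counts against 3 (adjusted p = 0.0259). The call of Sox10 was lost without HF replicate 2 or 3 and without IFE replicate 1 or 2 (adjusted p 0.0656 to 0.0861). The dermal papilla list, at 3.98, 4.74 and 3.67 CPM in HF and 14.3, 20.05 and 15.4 CPM in IFE, rested on Rspo3 in IFE and on Crabp1 in HF. Endothelial, muscle and red blood cell sums stayed under 5 CPM. Of 2 endothelial genes tested, Egfl7 was called higher in HF, with 73 counts against 9 (adjusted p = 0.0149). That call was lost without HF replicate 1 or 3 and with limma on log2(TPM + 1) (adjusted p 0.0501 to 0.0618). The part of these cells in the results was not tested.

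**Figure D5:**
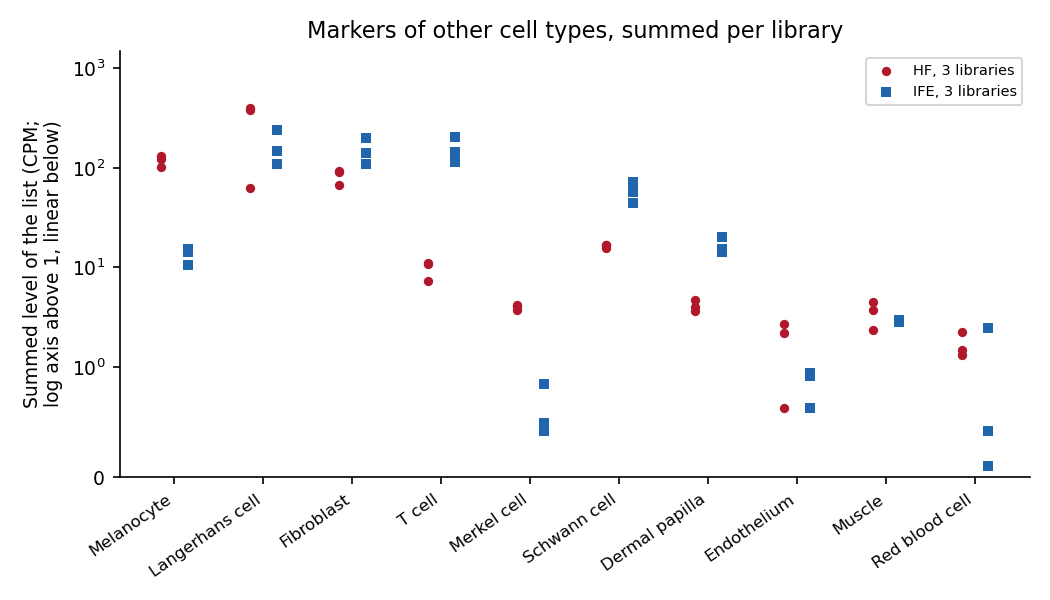
Summed level of each marker list in each library (vertical, CPM, log axis above 1 and linear below), red circles for HF and blue squares for IFE libraries. The Langerhans list spans 62.1 to 401 CPM within HF, and endothelial, muscle and red blood cell lists stay under 5 CPM in all libraries.

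Of the 12 genes of largest fold on the HF side, each had at most 37 counts over the IFE libraries. Crispld1 had no count in IFE and was at 23.9, 21.4 and 29.0 CPM in HF, at least 498-fold higher. Grik1, a glutamate receptor subunit gene, had 1977 counts in HF and 2 in IFE, a ratio of 1264 with a 95% counting interval of 349.5 to 10446. Il31ra, which encodes a receptor subunit for the itch cytokine interleukin 31, was at 288, 309 and 364 CPM in HF against 0.368, 1.13 and 0.530 CPM in IFE (log2 fold change 8.97 ± 0.76, adjusted p = 8.18e-05). Myoc, the gene of myocilin, was at 42.6, 78.0 and 131 CPM in HF against 0.210, 0 and 0.151 CPM in IFE (log2 fold change 9.21 ± 1.63, adjusted p = 0.00522). On the other side, Il20ra, a receptor subunit for interleukin 20, was at 0.594, 0.948 and 0.852 CPM in HF against 114, 145 and 105 CPM in IFE (log2 fold change -7.30 ± 0.30, adjusted p = 2.71e-08). Il12rb2 was at 1.46, 2.63 and 1.18 CPM in HF against 137, 206 and 149 CPM in IFE (log2 fold change -6.62 ± 0.42, adjusted p = 4.49e-06). The transcription factor gene Sox6 was at 1.55, 1.48 and 1.4 CPM in HF against 123, 66.1 and 109 CPM in IFE (log2 fold change -6.07 ± 0.31, adjusted p = 1.76e-07). Mmp3, which encodes the matrix protease stromelysin, had 1 count in HF and 839 in IFE, a ratio of 656 in favour of IFE with an interval of 117 to 25942.

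By difference in TPM, abundant genes led. Apoe, which carries lipids, had a mean of 27842 TPM in HF and 13923 TPM in IFE, and on the count scale a log2 fold change of 0.73 ± 0.20 (adjusted p = 0.0147) that was not called without HF replicate 2 (adjusted p = 0.0602). Ccn2, a matricellular target of YAP, was at 2977, 2489.9 and 3463 CPM in HF against 28.8, 35.4 and 46.5 CPM in IFE (log2 fold change 6.33 ± 0.53, adjusted p = 4.26e-05). S100a6 was higher in HF as well (log2 fold change 1.34). Lower in HF, besides Krt14, Krt5 and H2-K1, was Fcgbp, at 3097, 3164 and 2396 CPM in HF against 10732, 5706 and 12931 CPM in IFE (log2 fold change -1.76 ± 0.25, adjusted p = 0.000219).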

How the data were processed

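Expected counts and TPM values were taken from the table the authors deposited for the series. Those deposited expected counts are RSEM-type estimates for each gene without scaling across libraries. The TPM values, also deposited by the authors, are scaled to transcript length and library total. The build mm39 and the tools RSEM 1.3.3, DESeq2 1.38.2 and STAR 2.7.9a are listed, without roles, per the submitters' processing notes. Neither a strand setting nor an annotation release is given in the sources used here, so overlapping, antisense and near-identical genes are uncertain. Symbols for 52081 of 55357 identifiers came from a GENCODE table of another build, so no gene coordinates on the files' build are given, and those of the promoter windows are RefSeq's on GRCm38.p6.

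Expected counts were rounded. Genes were filtered with filterByExpr of edgeR 4.0.16 (minimum count 10, minimum total count 15), scaled by TMM and fitted in 1 robust quasi-likelihood model with all 9 libraries in R 4.3.3, with the Benjamini-Hochberg adjustment over 15046 genes. Alternatives were DESeq2 1.42.0 with its own size factors, RLE factors in edgeR, no filter, HF and IFE libraries alone, a replicate block, limma 3.58.1 on log2(TPM + 1), a 2-fold threshold and leaving out each library. No 2 libraries of a group agreed within sampling noise (chi-square per degree of freedom 16.8 to 73.6). Folds against a group with 0 counts are lower bounds at 3 counts over the group, and those against 1 to 3 counts carry exact 95% intervals, all for counting error only.

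The comparison, the gene lists and the alternatives were chosen with earlier results of these data known, so list counts are descriptions. The rule for named genes took the sort genes, Tnc, Cd34 and Lhx2. It also took the 12 called genes of largest fold in each direction with a mean of at least 10 CPM in the higher group, the 6 of largest TPM difference in each direction, both without overlap of libraries, all bulge, hair germ, Hedgehog and Ly6 genes, and of each other list the 4 called members of smallest p, or the 2 of highest TPM where none was called. Other list members named, the keratin and ribosomal protein families and the division of lists by role were chosen after their values were seen. The values of 3 list members are not reported here, although list counts include them.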

Additional observations from a re-analysis of the deposited data

How the results depend on the processing

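The 2-fold threshold left 1710 of the 2571 higher and 993 of the 2401 lower calls. Limma on log2(TPM + 1) called 2989 genes higher and 1209 lower, so that 71.2% of its calls were higher in HF against 51.7% in edgeR, and the median over all genes moved from 0.00 to 0.19, so changes on that scale are relative to 0.19. With each library left out in turn, 2168 to 2417 genes were higher and 1885 to 2284 lower. DESeq2 called 2836 and 2518. Of the genes called by edgeR, 1754 higher and 1111 lower ones were called under all 12 alternatives counted for single genes. Those 12 leave out the 2-fold threshold. Of 203 named genes, 187 were called, 169 of them under all 12 alternatives, and no called one changed direction. The replicate block gave 2735 higher and 2523 lower calls. Deviations of libraries with the same replicate number correlated at 0.059, -0.008 and 0.054. HF replicates 1 and 3 correlated best with their own number, and HF replicate 2 did not. With 3 libraries a side, such small correlations cannot show whether replicate numbers pair the libraries. At these depths a count of 0 allows a level of up to 0.114 to 0.316 CPM, depending on the library. The cause of the shift under limma was not tested.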

Other observations

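Sterol and fatty acid synthesis genes were higher in HF in 10 of 21 cases and lower in 1. The fatty acid elongase gene Elovl6 was at 134, 266 and 259 CPM in HF against 38.0, 48.2 and 46.8 CPM in IFE (log2 fold change 2.31 ± 0.29, adjusted p = 0.000244). HF replicate 1 was the lowest HF library for Elovl6, as in the sebaceous list. Retinoid genes were higher in 5 of 12 cases (41.7%, beside 17.1% of all genes) and lower in 2 (16.7%, near the 16.0% of all genes). Cyp26b1, which breaks down retinoic acid, was at 77.8, 75.3 and 117 CPM in HF against 10.4, 3.24 and 6.93 CPM in IFE (log2 fold change 3.70 ± 0.44, adjusted p = 0.000278). Cdh4, the gene of R-cadherin, was at 1.78, 3.27 and 1.83 CPM in HF against 99.9, 96.0 and 101 CPM in IFE (log2 fold change -5.50 ± 0.20, adjusted p = 4.28e-09). Of 18 cadherin genes tested, 8 were higher (44.4%, beside 17.1% of all genes) and 4 lower (22.2%, beside 16.0% of all genes). Without HF replicate 2, 5 cadherins were higher. Of 12 Notch genes, 2 were higher and 3 lower, with the ligands split between Jag1 (log2 fold change 0.88) and Dll1 (-1.37). The 2 higher Notch calls were 16.7%, near the 17.1% of all genes, and the 3 lower calls rest on few genes. Neither count was tested against the shares over all genes. Immediate early genes showed 2 higher and 2 lower calls of 18, and 1 to 4 were higher across the alternatives. Their share was 11.1% in each direction, below the 17.1% higher and 16.0% lower of all genes.

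Processed pseudogenes were called higher in HF in 0.29% and lower in 5.83% of 343 cases, against 18.6% and 17.3% of 13043 protein-coding genes. Reads of near-identical copies cannot be assigned with certainty. Long intergenic RNAs were called in 11.5% and 11.2% of 304 cases. Xist was at 11.3, 1.48 and 277 CPM in HF and 50.8, 325 and 192 CPM in IFE, and Y-linked Ddx3y was at 75.3, 58.5 and 49.9 CPM in HF against 78.7, 23.0 and 56.9 CPM in IFE. Each library thus held transcripts of both kinds, in very unequal amounts, and neither gene was called. Xist was lowest in HF replicate 2. IFE replicate 2, which stood apart from the other IFE libraries, had the highest Xist and the lowest Ddx3y. The part of sex in the results was not tested.

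In the 250 bases before the start, 66.3% of 10681 tested genes had a CpG observed over expected ratio of at least 0.6, against 52.8% of the genes higher and 51.7% of those lower in HF by at least 2-fold. The motif TGANTCA of AP-1 factors stood in 4.45% of all windows, 4.04% of the higher and 7.40% of the lower set. The GLI motif GACCACCCA (both strands) stood in 0.18%, 0.17% and 0.14%, and in none of the 8 Hedgehog genes with a window. Other motifs searched were TAATTA of LIM homeobox factors (2.20%, 1.65% and 2.79%), TGACGTCA of CREB factors (2.76%, 1.82% and 1.96%), TGGAAA of NFAT (14.8%, 15.8% and 16.2%), GGAATG of TEAD (10.7%, 11.3% and 13.3%) and CCACCCA, the core of the GLI motif (8.61%, 10.1% and 10.2%). A match describes letters only.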
